A study of Mus musculus with 4 samples.

Results

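The keratin genes of the mouse, the type I and type II families that encode the filament proteins of epithelial cells, were described across 4 RNA sequencing libraries of embryoid bodies. Members were all symbols of the deposited expression table that begin with Krt and a digit, which leaves out the keratin-associated proteins (Krtap). The rule found 49 keratins among 9997 distinct symbols, 28 of type I and 21 of type II. Embryoid bodies, floating clumps of differentiating embryonic stem cells, had been grown from the mouse line ES-E14TG2a. There were 4 groups of 1 library each: control embryoid bodies, and bodies given ATRA (all-trans retinoic acid, a vitamin A derivative that binds nuclear receptors), labelled 0, 6 and 10 days. The dose was 5 µM, given on culture days 4 and 6, and after 8 days the bodies were moved to dishes coated with polyornithine and laminin. How long the control had been cultured is not in the labels, so ATRA and culture age cannot be told apart in any comparison with it. Nor do the labels say what the 0, 6 and 10 days count from. Between the ATRA libraries, time and the move to coated dishes cannot be told apart. With 1 library per group there is no test and no replicate check, and each value describes its library.

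Keratins form intermediate filaments only as partners: an acidic type I protein pairs with a basic type II protein, and the filaments hold both in equal number. In the mouse the type I genes lie together on chromosome 11 and the type II genes on chromosome 15, with the type I gene Krt18 as the exception, next to Krt8 at the edge of the type II cluster. The pair Krt8 and Krt18 is the first to appear in the embryo and marks simple, single-layered epithelia such as trophectoderm and endoderm, where Krt19 and Krt7 join it. Krt5 and Krt14 mark the basal layer of stratified epithelia, other pairs mark its upper layers, and a large group is used only in hair.

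Levels are FPKM, fragments counted per length of transcript and scaled to the library total. Differences were taken between log2 values of FPKM plus 1, so those of low genes come out too small. Of all symbols, 5885 reached 1 FPKM in some library and were tested, and higher or lower means by 2-fold or more on this scale. The libraries held an estimated 24500000 to 27300000 fragments, so 1 FPKM on a transcript of 1 kb is about 24.5 to 27.3 fragments. Fragment numbers given for single genes are estimates from these depths and cover counting error only. Pou5f1, the pluripotency factor Oct4, was at 1241 FPKM in the control and at 97.4, 150 and 141 FPKM at 0, 6 and 10 days.

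Of the 49 keratins, 17 reached 1 FPKM in at least 1 library (34.7%), against 58.9% of all symbols. These were 11 of 28 type I and 6 of 21 type II genes. Among the 17, 13 were ATRA-induced, meaning 2-fold or more above the control in at least 1 ATRA library and in none 2-fold below it; 25.0% of all tested genes met this description. There were 3 control-high keratins, 2-fold or more above every ATRA library, all of type I (Krt17, Krt42 and Krt13), against 7.09% of all tested genes. No keratin was mixed, with some ATRA libraries 2-fold above the control and others 2-fold below (0.289% of tested genes), or control-high against only some ATRA libraries (14.9%). Krt10 stayed within 2-fold of the control in all 3 ATRA libraries, as did 52.7% of tested genes. The other 32 were under 1 FPKM in all 4 libraries and are called silent here. In such bulk samples, fewer cells of a type and less RNA per cell cannot be told apart, here and below.

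Counted over the comparisons, 4 of 17 keratins were higher at 0 days than in the control, where 12.2% of all tested genes were, and 3 were lower, against 12.8%. Higher genes were 48.9% of all genes called in that comparison, and 65.6% after upper-quartile scaling. From 0 to 6 days 11 were higher (8.22% of all genes) and none lower (4.88%), with a median log2 difference of 2.13 among the keratins and 0.01 among all genes. From 6 to 10 days 4 were higher (3.70%) and none lower (0.850%). Against the control, 10 were higher and 3 lower at 6 days (15.3% and 12.5% of all genes), and 13 higher and 3 lower at 10 days (19.6% and 17.1%). From 0 to 10 days 15 were higher and none lower (14.4% and 7.60%). These comparisons share libraries, so their counts are not independent of each other, and the 17 include genes that passed the 1 FPKM limit only through the library in which they were high.

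**Figure D1:**
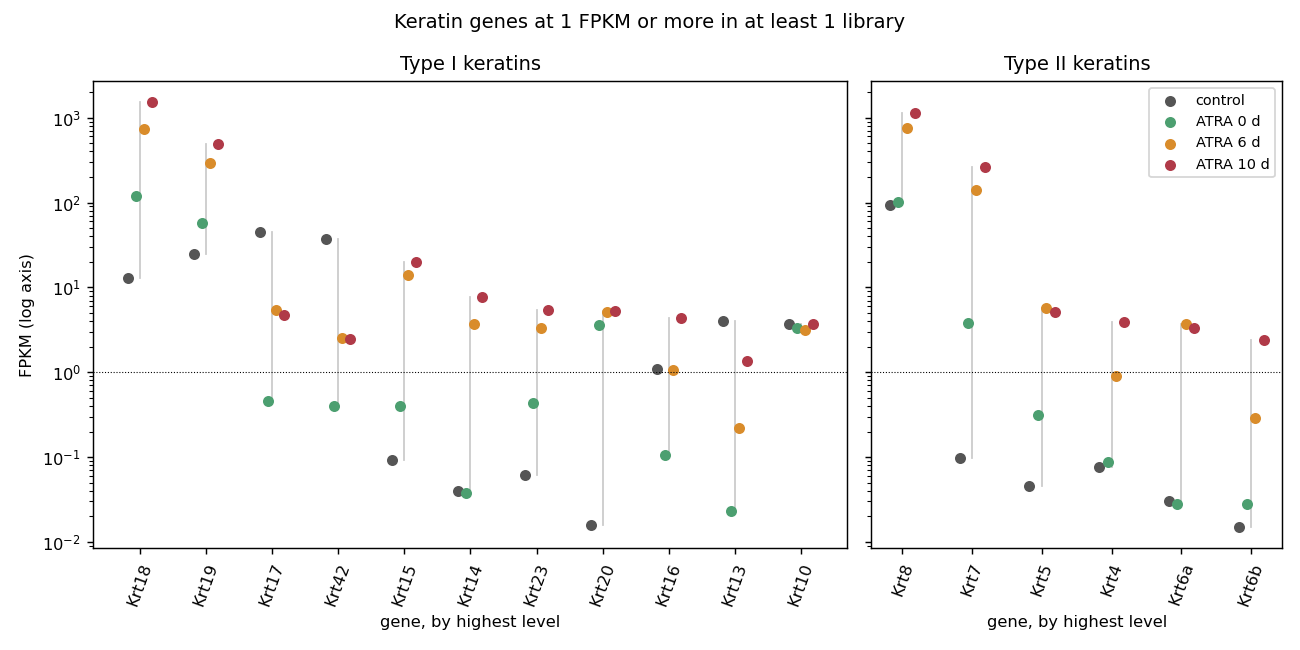
Level of the 17 keratins that reached 1 FPKM, type I on the left and type II on the right, on a log axis in FPKM; each point is 1 library and the grey line spans the 4. Krt17, Krt42 and Krt13 have their highest point in the control (45.3, 37.4 and 4.05 FPKM), while Krt18, Krt8, Krt19 and Krt7 have it at 10 days.

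The keratins of simple epithelia were the most abundant. Krt18 (mm10 chromosome 15, 102028180 to 102032027, plus strand) was at 12.8 FPKM in the control and, with ATRA, at 120 (0 days), 743 (6 days) and 1518 FPKM (10 days). Listed in this order, each library stood above the last. Krt18 was at rank 2540 of the 5885 tested genes in the control and at rank 53 at 10 days. Krt8, its type II partner (chromosome 15, 101996698 to 102004482, minus strand), was at 93.7, 102, 753 and 1129 FPKM. Krt8 was thus abundant in the control too, at rank 516, and its 2 lowest libraries were close together. Against the control, the log2 difference of Krt18 was 3.13 at 0 days, 5.75 at 6 days and 6.78 at 10 days, and that of Krt8 was 0.12, 2.99 and 3.58. The partners therefore differed in the 0-day library: Krt18 was 9.34-fold over the control there and Krt8 1.09-fold.

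Krt19, a type I keratin with almost no tail domain found in simple epithelia and ducts (chromosome 11, 100140810 to 100148665, minus strand), was at 24.4, 57.4, 294 and 490 FPKM in the same order. Its log2 difference from the control was 1.20 at 0 days and 4.27 at 10 days. Krt7, a type II keratin of simple and glandular epithelia (chromosome 15, 101411043 to 101430313, plus strand), was at 0.0976, 3.83, 140 and 260 FPKM. Krt7 had the largest difference from the control of the 17 keratins at 6 and at 10 days, where it was 7.89. Krt20, the type I keratin of intestinal epithelium, was at 0.0160 FPKM in the control, a level of about 1 fragment, and at 3.63, 5.09 and 5.29 FPKM in the ATRA libraries. It differed from the other simple epithelial keratins in that its 3 ATRA libraries lay within 2-fold of each other on the log2(FPKM + 1) scale. Krt23, a type I keratin less well placed in tissues, was at 0.0611, 0.437, 3.28 and 5.35 FPKM.

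The stretches of 250 bases before the annotated starts of Krt8, Krt18 and Krt7 are shown because these genes were higher together at 6 and 10 days, and that of Krt42 because it was control-high. The sequences are RefSeq's on GRCm38.p6, the build that mm10 names. They are written 5′ to 3′ on the gene's strand and end at the base before the RefSeq start. That start differs from the gene bounds printed in this report, which are those of GENCODE M21. By those bounds the Krt7 stretch lies inside the gene, and the Krt8 and Krt18 stretches lie partly inside theirs. Capitals mark matches, on either strand, to the motifs listed after them.
Krt8, chr15:102004343-102004592, minus strand: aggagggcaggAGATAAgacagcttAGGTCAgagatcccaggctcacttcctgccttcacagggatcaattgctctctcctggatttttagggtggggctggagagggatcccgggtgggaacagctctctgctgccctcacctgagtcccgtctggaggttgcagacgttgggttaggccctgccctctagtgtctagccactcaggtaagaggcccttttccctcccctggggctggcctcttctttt
Krt18, chr15:102027966-102028215, plus strand: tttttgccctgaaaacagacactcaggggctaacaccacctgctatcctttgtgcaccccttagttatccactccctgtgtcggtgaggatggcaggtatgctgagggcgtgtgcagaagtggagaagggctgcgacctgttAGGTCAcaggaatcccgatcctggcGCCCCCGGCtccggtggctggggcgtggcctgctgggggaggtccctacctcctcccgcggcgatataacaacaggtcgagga
Krt7, chr15:101412153-101412402, plus strand: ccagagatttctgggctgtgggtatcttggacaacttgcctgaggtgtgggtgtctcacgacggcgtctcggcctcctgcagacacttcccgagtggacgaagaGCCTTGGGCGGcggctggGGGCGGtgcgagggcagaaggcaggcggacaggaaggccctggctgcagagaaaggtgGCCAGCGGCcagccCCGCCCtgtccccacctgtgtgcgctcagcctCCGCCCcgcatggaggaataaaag
Krt42, chr11:100269952-100270201, minus strand: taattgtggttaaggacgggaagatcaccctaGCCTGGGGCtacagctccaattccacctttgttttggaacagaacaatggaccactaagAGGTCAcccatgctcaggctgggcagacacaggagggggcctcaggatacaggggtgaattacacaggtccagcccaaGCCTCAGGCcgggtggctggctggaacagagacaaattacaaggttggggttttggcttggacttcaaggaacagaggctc

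The motifs searched on both strands were the TATA box TATAAA, the GC box GGGCGG, the nuclear receptor half-site AGGTCA, a direct repeat of that half-site with 5 bases between (a form of retinoic acid response element), the AP-1 site TGANTCA, the AP-2 site GCCNNNGGC and the GATA site AGATAA. The direct repeat holds the half-site, and one GC box of Krt7 overlaps an AP-2 match. A half-site lay 225 bases before the RefSeq start of Krt8, 108 before that of Krt18 and 159 before that of Krt42. Krt7 had 4 GC boxes and no half-site. The table of starts held 35 of the 49 keratins, and 10 of the 17 that reached 1 FPKM (Krt13 with 2 starts); Krt15, Krt16, Krt17, Krt19, Krt4, Krt6a and Krt6b were not among them. The half-site was in 5 of 11 stretches of keratins that reached 1 FPKM and in 2 of 25 of silent ones, against 14.0% of 32851 stretches genome-wide. TATAAA showed the opposite split, in 2 of 11 and 15 of 25, against 12.4% of all. The GC box was in 1 of 11 and 1 of 25 (32.7% of all), the AP-1 site in 2 and 0 (6.75%), the AP-2 site in 3 and 1 (13.7%), the GATA site in 3 and 6 (9.99%), and the direct repeat in none (0.00913%). A match is a description of the letters and not a bound site.

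Markers of simple epithelium and endoderm moved in the same direction as these keratins. All 8 of 8 listed genes were in the table (Cldn6, Cldn7, Ttr, Apoa2, Sox17, Dab2, Gata4 and Gata6), with a summed level of 48.9 FPKM in the control and 142, 968 and 1360 FPKM at 0, 6 and 10 days. None was listed at 0 in any library, and all 8 were higher than in the control at 6 and at 10 days. Of all tested genes 15.3% and 19.6% were higher at those days. Ttr, the transthyretin carrier secreted by visceral endoderm, was at 1.07, 15.4, 183 and 356 FPKM. These markers were chosen with earlier results of these data known, so their counts are not independent of those results. The part of such cells in the keratin values was not tested.

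The 3 control-high keratins had their highest level without ATRA and their lowest at 0 days. Krt17, a type I keratin of stressed and developing epithelia and of hair follicles (chromosome 11, 100256217 to 100261029, minus strand), was at 45.3 FPKM in the control and at 0.463, 5.41 and 4.67 FPKM in the ATRA libraries. Krt42, a type I keratin known from the nail unit (chromosome 11, 100262882 to 100269871, minus strand), was at 37.4, 0.405, 2.56 and 2.45 FPKM. The neighbours had the same order of libraries: highest in the control, lowest at 0 days, and in between at 6 and 10 days. Their log2 differences at 0 days were -4.98 and -4.77, and from 0 to 6 days 2.13 and 1.34. The 0-day values rest on about 19 and 16 fragments, with 95% Poisson intervals of 0.278 to 0.723 FPKM for Krt17 and 0.231 to 0.658 FPKM for Krt42, both below the intervals at 6 days (4.69 to 6.18 and 2.09 to 3.13). Krt13, the type I keratin of internal stratified epithelia such as the oesophagus, was at 4.05, 0.0230, 0.222 and 1.35 FPKM. It too was lowest at 0 days, with about 1 fragment, but its 10-day value was above that at 6 days.

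Markers of embryonic stem cells were also highest in the control. The 5 of 5 listed genes (Pou5f1, Tdh, Esrrb, Dnmt3l and Tcl1) summed to 1867 FPKM in the control and to 118, 216 and 194 FPKM at 0, 6 and 10 days. All 5 were lower than the control in every ATRA library, none was listed at 0, and 2 were higher at 6 than at 0 days: Tdh (0.873 to 34.3 FPKM) and Tcl1 (0.905 to 9.89 FPKM). Of all tested genes 12.8%, 12.5% and 17.1% were lower than the control at 0, 6 and 10 days. From 0 to 6 days 8.22% were higher. This list, too, was chosen with earlier results of these data known, so its counts are not independent of them. The part of undifferentiated cells in the levels of Krt17 and Krt42 was not tested.

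Krt17 and Krt42 lie 1.85 kb apart, and their coding sequences are similar, so the chance of shared reads was examined. Over 1299 aligned coding bases they were 79.8% identical, and Krt14 and Krt17 were 84.1% identical. The stretch of 39 coding bases that begins at the helix initiation motif, the most conserved part of a keratin rod, is shown for 9 keratins, from GENCODE M21 transcripts, 5′ to 3′. Capitals mark bases that differ from Krt18 among type I genes.
Krt18: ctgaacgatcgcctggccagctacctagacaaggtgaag
Krt19: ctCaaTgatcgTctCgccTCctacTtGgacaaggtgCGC
Krt17: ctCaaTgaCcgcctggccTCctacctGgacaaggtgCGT
Krt42: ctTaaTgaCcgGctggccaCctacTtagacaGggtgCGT
Krt14: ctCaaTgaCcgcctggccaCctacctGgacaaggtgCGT
Krt16: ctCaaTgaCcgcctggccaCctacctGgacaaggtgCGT
Krt15: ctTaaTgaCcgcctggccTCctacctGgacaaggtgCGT

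For type II genes capitals mark bases that differ from Krt8.
Krt8: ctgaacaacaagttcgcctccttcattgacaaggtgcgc
Krt7: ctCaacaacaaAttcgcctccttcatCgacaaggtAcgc

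In this stretch Krt14, Krt15 and Krt16 each differed from Krt17 at 1 base and Krt42 at 6, and Krt18 differed from Krt8 at 15. Over whole transcripts, 0.266% of the 50-base words of Krt17 occurred in Krt42 and 0.268% of those of Krt42 in Krt17, so a read of that length nearly always tells the pair apart. The same held for Krt19, Krt13, Krt20, Krt23 and Krt4, which shared no such word with any other annotated gene. It did not hold for Krt6a and Krt6b, which were 97.8% identical in coding sequence and shared 43.6% and 44.5% of their words, nor for Krt16, which shared 12.4% with Krt14 and 25.2% with the predicted gene Gm11597. Krt8 shared 26.9% with its processed pseudogene Krt8-ps. Counted over all other annotated genes, the shares were 62.0% for Krt6a, 50.1% for Krt6b, 37.6% for Krt16 and 29.7% for Krt8. Krt14 shared 14.4% with other genes, and Krt5 shared 12.2%. The values of Krt6a, Krt6b, Krt16, Krt8, Krt14 and Krt5, and the sums and pair ratios that use them, are uncertain to that extent. How the authors divided such reads is not stated. Whether counting used strand is not stated, and annotated antisense transcripts overlap Krt10 (Gm11940), Krt6a (Gm49428) and Krt7 (Gm671), and a long intergenic RNA on the opposite strand overlaps Krt8 (Gm36026), so reads from the overlapping bases cannot be assigned. The 50-base words shared with these partners were 2.44% for Krt10, 2.78% for Krt8 and 15.5% for Krt6a, and Krt7 shared none with Gm671.

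The basal keratins of stratified epithelia reached 1 FPKM only at 6 and 10 days, at levels far below those of Krt8, Krt18, Krt19 and Krt7. Krt5, the basal type II keratin (chromosome 15, 101707070 to 101712898), was at 0.0459, 0.315, 5.78 and 5.18 FPKM. Its type I partner Krt14 (chromosome 11, 100203162 to 100207548) was at 0.0393, 0.0378, 3.72 and 7.61 FPKM, and Krt15, the other basal type I keratin (chromosome 11, 100131758 to 100135928), at 0.0912, 0.398, 14.1 and 20.0 FPKM. In the control these values rest on about 2, 2 and 4 fragments. All 3 were called higher at 6 than at 0 days (log2 differences of 2.37, 2.19 and 3.43). None was called between 6 and 10 days, but Krt14, with a log2 difference of 0.87, was 2.04-fold higher in plain FPKM. Trp63, the transcription factor p63 that specifies stratified epithelium, was listed at 0 in the control and stood at 0.0438, 1.38 and 0.654 FPKM.

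Of the keratins of stress and rapid growth, Krt6a was at 0.0303, 0.0283, 3.66 and 3.31 FPKM and Krt6b at 0.0150, 0.0280, 0.291 and 2.39 FPKM. Both are type II genes usually paired with Krt16 or Krt17. Krt6a was present by 6 days, and Krt6b only passed 1 FPKM at 10 days. Krt16 was at 1.10, 0.107, 1.05 and 4.30 FPKM, so it was low at 0 days like Krt17 but, unlike Krt17, had its highest value at 10 days. Its 0-day difference from the control, -0.92, lay just inside the 2-fold limit, and offsets of 0.1 or 0.5 in place of 1 moved it past that limit, which made Krt16 higher at 10 days and lower at 0 days. Krt4, the type II partner of Krt13 in internal stratified epithelia, was at 0.0765, 0.0880, 0.911 and 3.87 FPKM. In the last step, from 6 to 10 days, Krt16, Krt4 and Krt6b were 3 of the 4 keratins called higher, with log2 differences of 1.37, 1.35 and 1.39, and Krt18 was the fourth at 1.03. With upper-quartile scaling Krt18 was at 0.90 in this step, under the limit, and 3 keratins were called.

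In the list of stratified epithelium markers, the only genes of the table other than keratins were Trp63 and Perp. The summed level includes Krt5, Krt14 and Krt15, so it is not separate from the keratin values. In that list 5 of 6 genes were in the table (Trp63, Krt5, Krt14, Krt15 and Perp), and their sum of 50.4, 25.5, 60.0 and 80.6 FPKM was mostly Perp, a desmosome-associated protein also induced by p53, at 50.2, 24.7, 35.0 and 47.2 FPKM. Of the trophoblast list 4 of 5 genes were in the table, all listed at 0 at 0 days, with sums of 0.359, 0, 39.2 and 64.4 FPKM. Of the 3 tested, 2 were higher than the control at 6 days and 3 at 10 days. Among all tested genes 15.3% and 19.6% were. These 3 passed the 1 FPKM limit only through the libraries in which they were high. Tpbpa, a marker of the spongiotrophoblast, was at 0.0971, 0, 19.2 and 28.0 FPKM. The part of either cell type in the keratin values was not tested.

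Krt10, the type I keratin of the upper epidermis, was the only keratin at 1 FPKM or more that did not differ 2-fold in any of the 6 comparisons, at 3.74, 3.31, 3.17 and 3.74 FPKM. This is the sum of 2 rows of the table that carry its symbol, and the larger row alone was at 3.67, 2.62, 3.02 and 3.69 FPKM. Its epidermal type II partners were silent: Krt1 reached at most 0.160 FPKM and Krt2 0.0118 FPKM.

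Every hair keratin of the table was silent. All 12 hair shaft keratins and all 9 of the inner root sheath and companion layer stayed below 1 FPKM, with highest values of 0.101 FPKM (Krt33a) and 0.156 FPKM (Krt75). Of the 11 suprabasal and regional keratins, 8 were silent, among them Krt80 with 0.795 FPKM at 10 days, the highest level of any silent keratin. Krt80 was at 0.110 FPKM in the control, listed at 0 at 0 days, and at 0.284 FPKM at 6 days, so it was nearest to the limit; just above it, Krt6b reached 2.39 FPKM. The other 31 silent keratins were under 0.2 FPKM in every library. There were 6 listed at 0 in all 4 libraries: Krt32, Krt33b, Krt35, Krt36, Krt72 and Krt74. Of all symbols in the table, 41.1% were under 1 FPKM throughout, against 32 of 49 keratins.

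In chromosomal order, silent and expressed keratins fell into runs. On chromosome 11, 10 of 27 keratins reached 1 FPKM. The 12 genes from Krt222 to Krt40 held 3 of them (Krt10, Krt20 and Krt23), the 7 hair keratins from Krt33a to Krt36 none, and the last 8, from Krt13 to Krt42, held 7, with Krt9 of palm and sole skin as the silent one. The gap of 468 kb between Krt40 and Krt33a holds Krtap genes, and none of the 47 Krtap symbols in the table reached 1 FPKM (highest 0.261 FPKM). On chromosome 15, 7 of 22 did. These were Krt7 near the start, the trio Krt6b, Krt6a and Krt5, then Krt4, and Krt8 with Krt18 at the end. The 8 genes from Krt71 to Krt76, of hair and epidermis, and the 4 from Krt86 to Krt75 were silent. Neighbours did not always have the same order of libraries: Krt16 is 7.31 kb from Krt17, and had its highest value at 10 days.

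**Figure D2:**
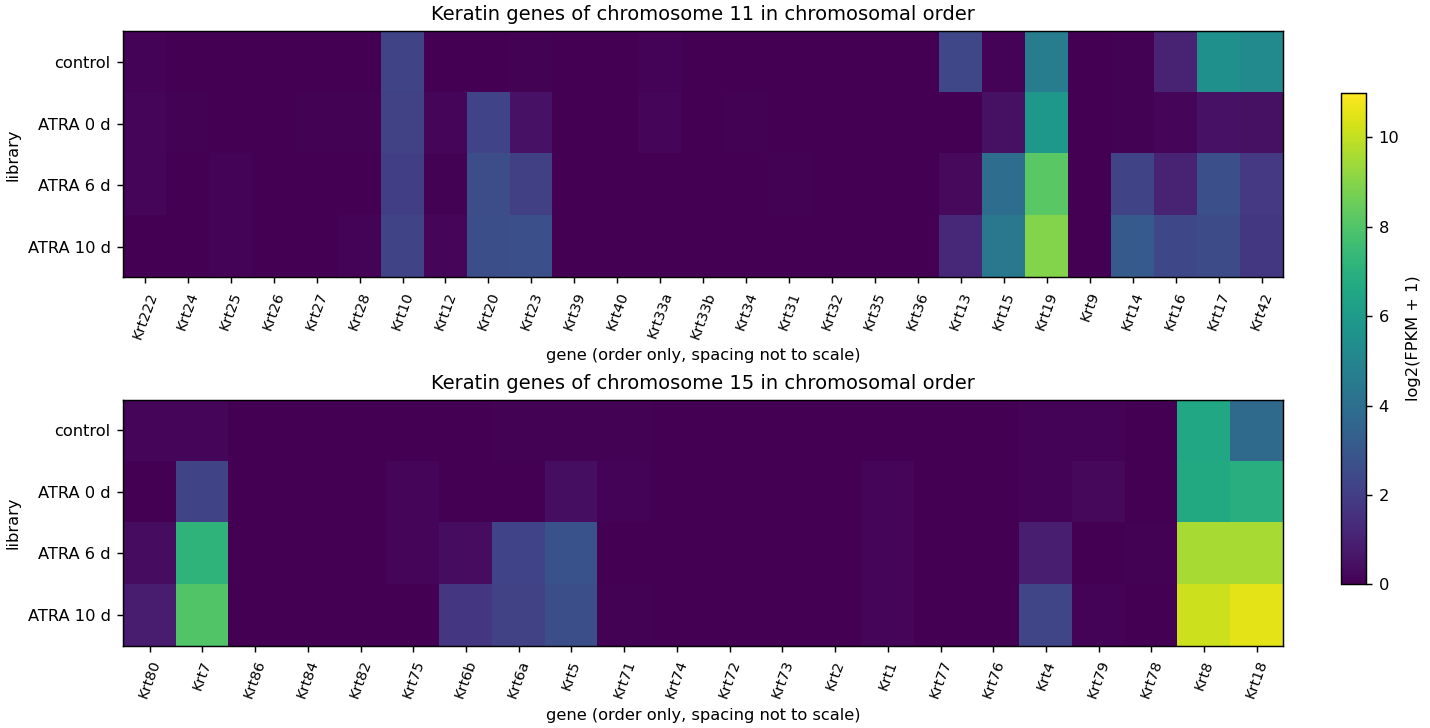
Keratin genes in chromosomal order on chromosome 11 (27 genes) and chromosome 15 (22 genes), with 1 row per library and colour for log2(FPKM + 1) from 0 to 11; spacing is not to scale. Silent runs of hair keratins separate the expressed genes, and Krt17 with Krt42 are bright in the control row while Krt8 with Krt18 are brightest at 10 days.

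Summed over all members, keratin RNA was at 223 FPKM in the control and at 293, 1979 and 3468 FPKM in the ATRA libraries. The sum at 10 days was 15.5-fold that of the control, and 6 days was 6.75-fold of 0 days. Type I and type II kept near each other in these sums: type I was at 129, 186, 1075 and 2063 FPKM and type II at 94.3, 107, 904 and 1405 FPKM, a ratio of type I to type II of 1.37, 1.74, 1.19 and 1.47. While the sums of both types were about as far apart in the control as at 10 days, the type I genes that made up the sum were different. Krt17 and Krt42 were 64.1% of the type I sum in the control and 0.466%, 0.741% and 0.345% at 0, 6 and 10 days. Krt18 and Krt19 were 28.8% in the control and 95.0%, 96.4% and 97.3% in the ATRA libraries. On the type II side Krt8 was 99.4% of the sum in the control, and 95.5%, 83.3% and 80.4% in the ATRA libraries. Krt7 was 0.104% in the control and 3.58%, 15.5% and 18.5% in the ATRA libraries. In the control, then, nearly all type II RNA was Krt8, beside a type I side led by Krt17 and Krt42.

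**Figure D3:**
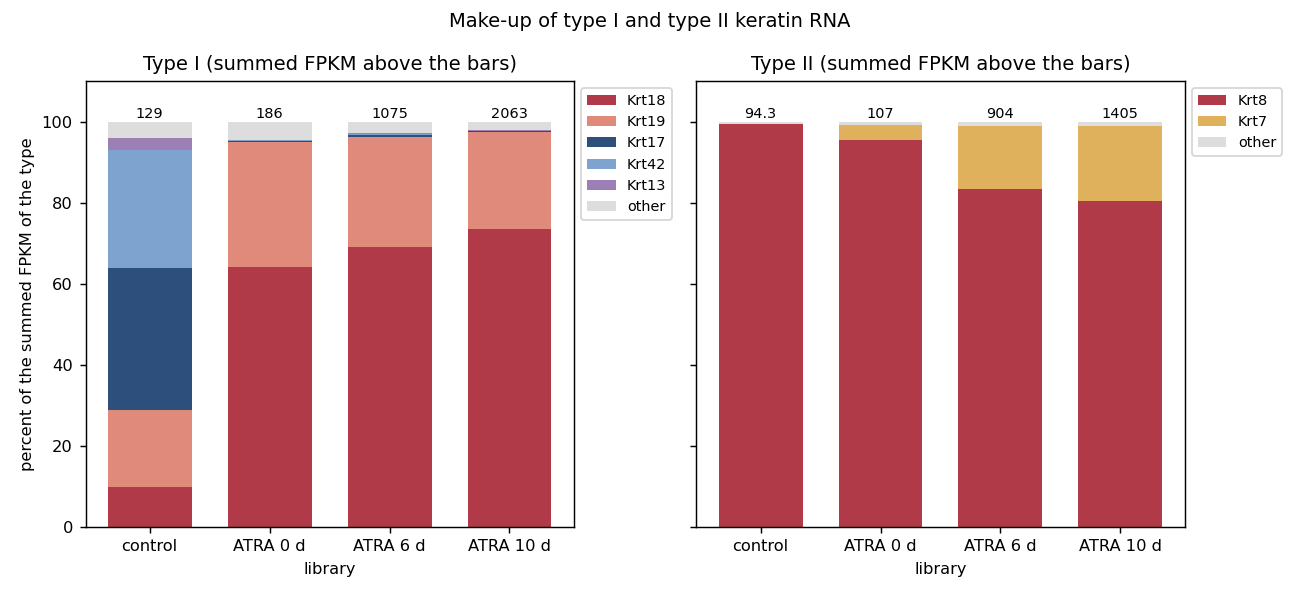
Percent of the summed FPKM of type I (left) and type II (right) keratins taken by each named gene in the 4 libraries, with the summed FPKM above each bar. Krt17 and Krt42 take 64.1% of the type I bar in the control and under 1% in the ATRA libraries, where Krt18 and Krt19 take 95.0% to 97.3%.

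Pairs known from epithelia were then compared member by member. Of 15 pairs with both symbols in the table, 11 had both partners among the 17; some genes stand in several pairs, so the pairs are not independent. Krt8 was 7.32-fold over Krt18 in the control and 0.854-, 1.01- and 0.743-fold of it at 0, 6 and 10 days, which placed the partners near equal levels in the ATRA libraries only. Krt8 was 3.85-fold over Krt19 in the control and 1.78-, 2.56- and 2.30-fold in the ATRA libraries. Krt7 stayed below both type I genes, at 0.188-fold of Krt18 at 6 days and 0.171-fold at 10 days. Krt5 was 1.55-fold over Krt14 at 6 days and 0.681-fold at 10 days, and 0.410- and 0.259-fold of Krt15.

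At 10 days against the control, 8 of the 11 pairs had both partners higher and 3 were opposite. The 3 were Krt6a with Krt17, Krt6b with Krt17, and Krt4 with Krt13: in each the type II gene was higher and the type I gene lower. From 0 to 6 days 7 pairs were higher in both partners and none was opposite, and from 0 to 10 days 10 of 11 were higher in both. At 10 days all 6 type II keratins of the 17 and 7 of the 11 type I were higher than the control. From 0 to 10 days 15 of the 17 were higher. Most pairings of any type I with any type II gene among them would thus also be both higher, so these 10-day counts say little about known partners. At 0 days against the control only 2 pairs moved together (Krt7 with Krt18 and with Krt19), and in 6 only 1 partner was called. In the control Krt17 stood at 45.3 FPKM beside 0.0303 FPKM of Krt6a and 0.0150 FPKM of Krt6b, and Krt13 at 4.05 FPKM beside 0.0765 FPKM of Krt4.

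**Figure D4:**
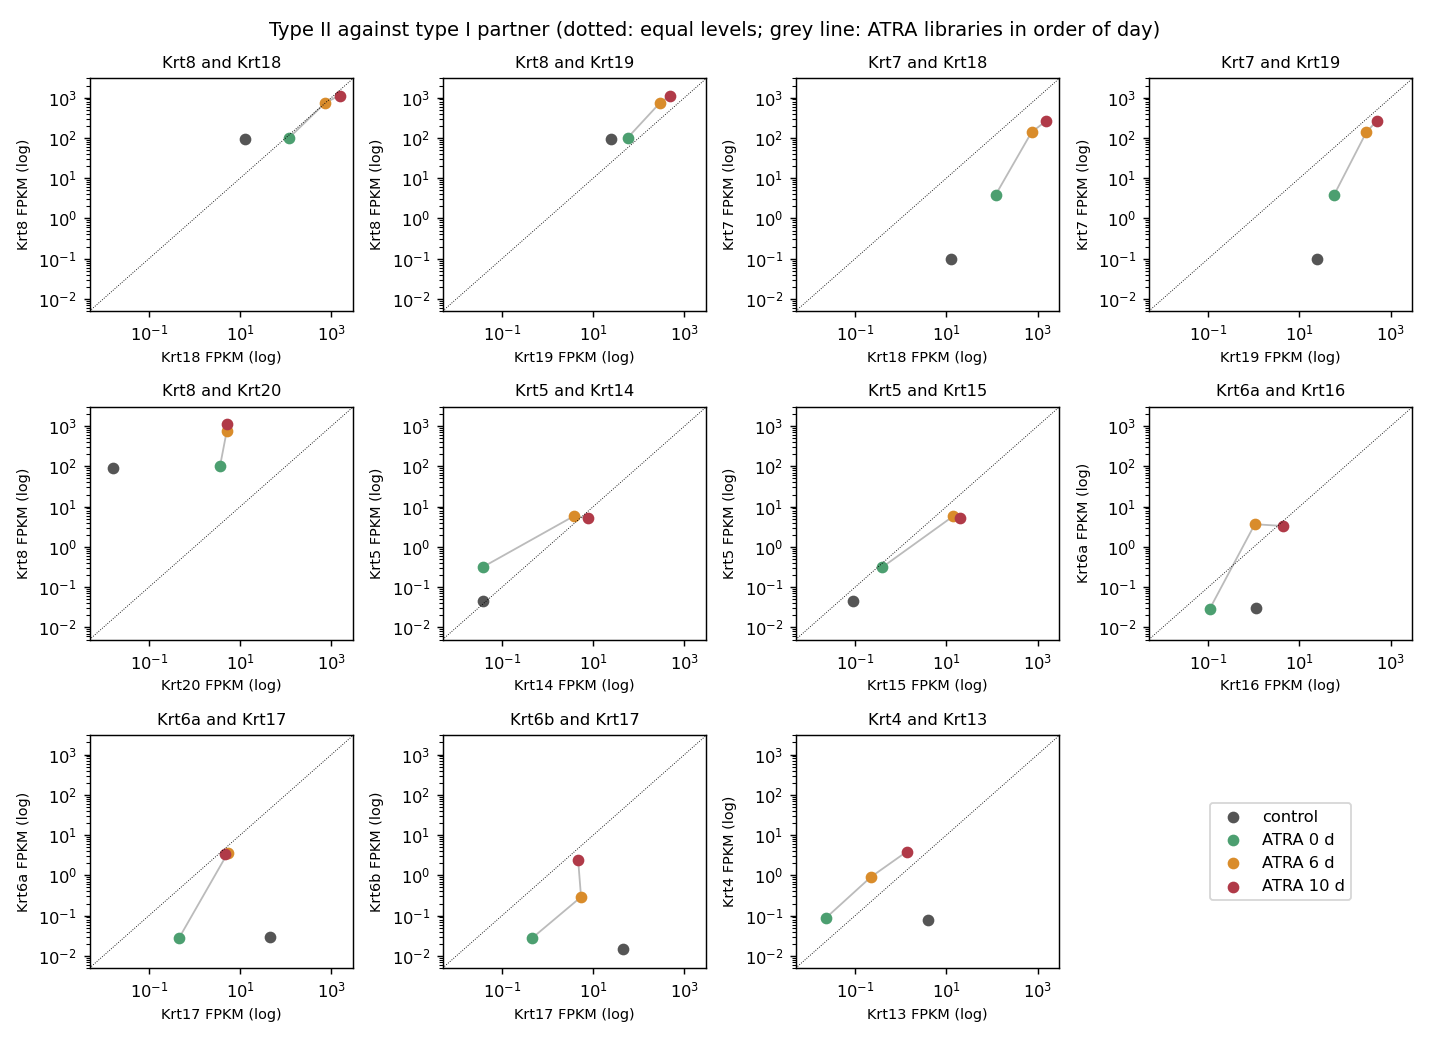
Type II partner (vertical, FPKM, log axis) against type I partner (horizontal, FPKM, log axis) for the 11 pairs with both genes among the 17; each point is 1 library, the grey line joins the ATRA libraries by day and the dotted line marks equal levels. The Krt8 and Krt18 points lie near the dotted line in the ATRA libraries and far above it in the control, where Krt6a, Krt6b and Krt4 lie far below it.

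Genes that anchor keratin filaments were called in both directions against the control. Of 19 listed linkers and desmosome genes 15 were in the table and 10 were tested. At 0 days 3 were higher and 3 lower than the control, at 6 days 3 and 1, and at 10 days 4 and 1, with medians of -0.13, 0.16 and 0.58. Of all tested genes 12.2% were higher and 12.8% lower at 0 days, 15.3% and 12.5% at 6 days, and 19.6% and 17.1% at 10 days. From 0 to 10 days 4 of the 10 were higher and none lower, with a median of 0.73, against 14.4% and 7.60% of all genes. Dsp, desmoplakin, which ties keratins to desmosomes, was at 3.80, 29.4, 13.3 and 15.4 FPKM. Dsc2, a desmosomal cadherin, was at 0.321, 6.30, 7.50 and 8.93 FPKM, while its counterpart Dsg2 was highest in the control, at 23.6, 6.08, 10.1 and 9.65 FPKM. Jup, plakoglobin, was at 32.5, 9.46, 26.1 and 36.1 FPKM, with its lowest value at 0 days like Krt17. The 5 that were not tested stayed at or below 0.510 FPKM.

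Among transcription factors of epithelia, 9 of 17 listed were in the table and tested. At 0 days 1 was higher than the control and 1 lower, at 6 days 4 and 1, and at 10 days 3 and 1. The shares among all tested genes were 12.2% and 12.8%, 15.3% and 12.5%, and 19.6% and 17.1%, in the same order. Grhl2, a grainyhead factor of epithelial identity, was at 1.03, 0.462, 8.08 and 10.9 FPKM. Elf3, an epithelial ETS factor, was at 20.8, 24.6, 36.3 and 65.4 FPKM. Klf5, active both in stem cells and in epithelia, was at 248, 30.8, 32.5 and 38.2 FPKM, and Cdx1, a caudal factor of gut, was at 0.441, 4.91, 0.232 and 0.726 FPKM.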

How the data were processed

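RNA was sequenced from 4 libraries, 1 per group. The deposited values are FPKM per gene symbol, per the file headers; the submitters' processing notes list Trimmomatic, TopHat and Cufflinks, with no versions, and the build mm10. The annotation, strand setting and filters were not stated there. The table has 10201 rows and 9997 distinct symbols, and rows of 1 symbol were summed. It gives no counts: depth was estimated from the lowest values of 1377 single-transcript genes at least 800 nt long (the median of FPKM times kb between 0.02 and 0.05 is taken as 1 fragment), and fragments of a keratin from its GENCODE M21 transcript. FPKM scales to the library total, so abundant transcripts lower all other values.

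Members and lists were chosen with earlier results of these data known, so counts within a list are descriptions and not independent evidence. All keratins at 1 FPKM or more are named; of each other list, single values are given for up to 4 further genes. The lists of neuron and of cornified markers and of other intermediate filaments are given in the closing section. Gene positions and transcripts come from GENCODE M21, promoters from RefSeq on GRCm38.p6. Classes were tested on simulated libraries of 3973 genes with Poisson error, changed 3-fold or 6-fold: 98.0% of planted control-high and 100.0% of planted ATRA-induced genes came back. The planted folds lay above the 2-fold limit, so this tests the code under counting error and says nothing of variation between cultures. The 3973 genes were those with a mean of 5 FPKM or more over the 4 libraries, fewer than the 5885 tested. Recovery was not split by level. Lower means, such as those of Krt10, Krt13, Krt14, Krt16, Krt20, Krt23, Krt4, Krt5, Krt6a and Krt6b, were left out. Recovery at such levels was thus not tested. The keratins Krt81, Krt83, Krt87, Krt88 and Krt90 were not analysed here. Alternatives were no filter or one at 5 FPKM, offsets of 0.1 and 0.5, a 4-fold threshold, scaling by median ratio or upper quartile, taking only the highest row where a symbol repeats, and removing small and ribosomal RNAs. Software was Biopython 1.88, matplotlib 3.10.9, scipy 1.17.1, pandas 2.3.3, numpy 2.4.6 and Python 3.11.15.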

Additional observations from a re-analysis of the deposited data

How the results depend on the processing

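No paired analysis was possible because each group had 1 library. No called difference of a keratin changed sign under any alternative, and the class of every keratin held under both scalings and with the highest row of a repeated symbol. Krt16 became mixed (1 keratin in that class in place of 0) with an offset of 0.1 or 0.5 and with small and ribosomal RNAs left out. At 4-fold Krt13 was control-high in part only, and Krt16 and Krt6b fell within the limit. The filter at 5 FPKM removed Krt10, Krt13, Krt16, Krt4, Krt6a and Krt6b. Without small RNAs Krt80 reached 1 FPKM and was within 2-fold.

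The count of keratins higher at 0 days than in the control was 7 with an offset of 0.1. The count higher from 6 to 10 days was 1 with the filter at 5 FPKM, 0 at 4-fold, 3 with upper-quartile scaling (Krt18 at 0.90) and 7 without small RNAs. Pairs called in 1 direction from 6 to 10 days numbered 1 with either smaller offset and 2 without small RNAs, in place of 0; from 0 to 10 days 6 with the filter at 5 FPKM; and 1 at 0 days against the control at 4-fold.

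The keratin median log2 difference, with an offset of 0.1, was 2.63 from 0 to 6 days, 3.59 and 4.49 at 6 and 10 days against the control, and 3.67 from 0 to 10 days. With an offset of 0.5 the last 3 were 2.97, 3.38 and 2.85, and with the filter at 5 FPKM 2.70, 3.05 and 3.05, with 0.36 at 0 days against the control. Without a filter, which adds the 32 silent genes, the medians were 0.02 from 0 to 6 days, 0.00 from 6 to 10 days, 0.03 and 0.00 at 6 and 10 days against the control, and 0.00 from 0 to 10 days. Without small RNAs the last was 2.51.

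With median-ratio scaling the keratin sum was 215 FPKM (control) and 2013 FPKM (6 days); 202, 315, 2106 and 3359 FPKM in the 4 libraries with upper-quartile scaling; and 323, 419, 2635 and 5012 FPKM without small RNAs. Upper-quartile scaling moved the median of all genes at 0 days against the control from -0.04 to 0.15, and the share of higher genes among those called from 48.9% to 65.6%.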

Other observations

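Other intermediate filament genes were called in both directions against the control. Of 16 listed, 8 were in the table and 7 were tested. At 10 days 1 was higher (Nefl) and 3 were lower than the control, with a median of -0.61. Of all tested genes 19.6% were higher and 17.1% lower at 10 days. The nuclear lamin Lmnb2 (41.8, 16.0, 14.8 and 12.1 FPKM in the control and at 0, 6 and 10 days) and Nefh, the neurofilament heavy chain (2.72, 0.821, 0.361 and 0.206 FPKM), were highest in the control. Prph, peripherin of peripheral neurons, was at 13.4, 32.7, 3.56 and 8.45 FPKM, and Nefl, the neurofilament light chain, at 2.88, 2.58, 39.6 and 21.8 FPKM. Nefl had its highest value at 6 days, while Krt8 and Krt18 were highest at 10 days. Of 5 neuron markers 4 were tested, with sums over the 5 of 7.77, 9.41, 69.4 and 33.7 FPKM. Of these, 4 were higher at 6 than at 0 days (8.22% of all tested genes). At 10 days 2 were lower than at 6 days (0.850% of all tested genes). Of the 4 cornified and suprabasal markers Krt1 and Krt10 were in the table, with sums of 3.75, 3.41, 3.29 and 3.90 FPKM.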
